A study of Mus musculus with 3 samples.

Results

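Macrophages of the brains with metastases were 1005 of the 12421 cells in the series, 304 from metastasis 1 and 701 from metastasis 2. They were cells of the authors' cluster 2 from these brains with fewer than 2 UMIs (unique molecules counted per droplet) of the T cell genes Cd3d, Cd3e, Cd3g and Trac. In each of them the summed UMIs of C1qa, C1qb, C1qc, Ms4a7 and Apoe exceeded those of the monocyte genes Ly6c2, Plac8, Chil3, Thbs1 and F13a1. Cells of cluster 2 with the opposite order of sums are called monocytes here, 327 in metastasis 1 and 247 in metastasis 2. A further 34 and 48 cells had equal sums and 53 and 67 carried T cell RNA. In the naive brains cluster 2 held 10 and 5 cells, of which 8 and 2 met the RNA part of the rule, too few to compare.

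The study read RNA and antibody-bound tags from the same droplets (CITE-seq). The brains with metastases came from female C57BL/6 mice aged 2 to 3 months whose tumours grew from E0771, a mouse mammary carcinoma line given by carotid injection, and were taken about 2 weeks later. The naive brains came from female C57BL/6 mice of the same ages with no metastases. By the deposited hashing calls each condition had 2 brains, whereas the series' design speaks of 6 samples in the library, and only the 4 called brains were used here. They were stained with 6 surface antibodies and a hashing antibody each, enriched for immune cells on Percoll and pooled in a single run, in which each barcode occurred once. The labels give 1 brain hemisphere per sample and do not say that the suspensions came from separate days. The tumour line is a single line placed in the circulation, so spread from a primary tumour is not modelled.

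Monocytes leave the blood for inflamed tissue through the receptor Ccr2, lose Ly6c2 and take on macrophage genes, among them those of C1q, the first component of the complement cascade, and of the lipid carrier Apoe. In the brain such cells join microglia, which settle before birth and express Tmem119 and P2ry12, and the macrophages of meninges and vessels, which express Mrc1, Lyve1 and Cd163. C1q genes and Apoe are shared by all 3 kinds of cell, while the membrane protein Ms4a7 is low in microglia.

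The cells were chosen by their UMIs of the genes of the rule, and the authors' clusters rest on the same RNA. All contrasts in RNA between macrophages and monocytes are therefore descriptions with no test, given per brain. Only the antibody tags are independent of the rule. Macrophages and monocytes come from the same 2 brains, and the exact permutation test does not use this pairing. It cannot give a p below 0.333, and an exact sign-flip test that keeps the pairing cannot give one below 0.5. The macrophages held 686454 UMIs in metastasis 1 and 1657982 in metastasis 2. Their median was 1602.5 and 1631 UMIs per cell, against 1398 and 1053 in monocytes. Median mitochondrial shares were 1.29% and 1.26% in macrophages and 1.63% and 1.79% in monocytes. Levels are CPM, the UMIs of a gene summed over a class in a brain and scaled to the same total of UMIs in every class. Ratios are log2 of (CPM + 10).

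Macrophages made up 48.2% of the macrophages and monocytes of metastasis 1 (95% exact binomial interval 44.2 to 52.2) and 73.9% of those of metastasis 2 (71.0 to 76.7). The intervals cover counting error only and do not overlap. With Apoe left out of the rule, the members were 728 and the shares 35.1% and 54.4%, each below its interval. As a share of all cells, macrophages were 5.67% of metastasis 1 and 11.4% of metastasis 2. Percoll enrichment can move such shares, and its part was not tested. The border of the class was not sharp. The 118 members within 1 or 2 UMIs of the threshold had medians of 3 macrophage and 2 monocyte UMIs, and the 139 cells at or 1 UMI past it had 2 and 3. In contrast, 612 members (60.9%) were more than 10 UMIs inside, with medians of 37.5 and 3.

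The label was set beside markers of the cell types the suspension could hold. Ms4a7 and C1qa are genes of the rule, so their levels describe the cells and bear no weight for the name. Ms4a7 was at 1197 and 1169 CPM in the macrophages and at 49.2 and 77.7 CPM in naive cells of cluster 12, the authors' cluster with the microglia genes. C1qa was at 1499 and 1752 CPM in the macrophages, below the 5350.1 and 6642 CPM of naive cluster 12. Of 16 macrophage identity genes outside the rule, 15 were at 50 CPM, and they did not separate macrophages from monocytes: 8 were higher and 7 lower in both brains, with a median log2 ratio of 0.03. Their sums were 7263 and 7705 CPM in macrophages and 7834 and 8084 CPM in monocytes. Among them Cd68, a lysosomal glycoprotein, was at 809 and 758 CPM and the Csf1 receptor gene Csf1r at 329 and 273 CPM, against 443 and 544 CPM for Cd68 and 1249 and 1223 CPM for Csf1r in naive cluster 12. Ccr2 was at 385 and 339.6 CPM and was seen in 48.0% and 42.7% of macrophages, against 1.29% and 1.60% of cells of the endothelial cluster 6. Descent from blood was not measured.

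All 12 genes of the microglia list were at least 2-fold lower than in naive cluster 12 in all 4 pairs of brains, with a median log2 ratio of -3.75, where 10.7% of 3494 genes were so lower and 8.39% higher. Tmem119 was at 108 and 57.3 CPM, against 1789.9 and 1903 CPM in naive cluster 12, and P2ry12 at 55.4 and 18.1 CPM against 1209.7 and 1165 CPM. The summed list was at 1133 and 668 CPM in the macrophages and at 12992 and 13886 CPM in naive cluster 12. In cluster 12 of the brains with metastases, of 26 and 14 cells, it was at 6552 and 3511 CPM and Tmem119 at 424 and 348 CPM, so the gap within these brains was smaller. Its level was not zero, and it moved between the brains with Cx3cr1.

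Border macrophage genes were mostly near 0. Cd163, Lyve1 and Cd209g had no UMI in the macrophages of either brain. The mannose receptor gene Mrc1 was at 39.3 and 49.5 CPM and the folate receptor gene Folr2 at 18.9 and 24.7 CPM. Pf4, a platelet chemokine that border macrophages and maturing monocyte-derived cells also express, was the member with the highest level, at 77.2 and 152 CPM. Among genes of other cells, T and NK cell genes summed to 283 and 218 CPM, B cell genes to 83.0 and 72.4 CPM and mural genes to 35.0 and 50.7 CPM, with Vtn and Kcnj8 at 0. The T and NK list holds Cd3d, Cd3e, Cd3g and Trac, which the rule capped. Its low sum was thus set in part by the choice of cells and bears no weight for the name. Epithelial genes summed to 112 and 116 CPM, with Krt7, Krt19, Cldn4 and Cldn7 at 0, against 431 and 675 CPM in the large clusters 0, 1, 3, 4 and 5. Endothelial genes summed to 405 and 794 CPM, against 3556 and 3428 CPM in cluster 6. Ly6a alone was at 339 and 739 CPM in the macrophages, and the next member, Kdr, at 33.5 and 35.0 CPM. Choroid plexus RNA was higher, with Ttr at 4066 and 2199 CPM in macrophages and 3586 and 1211 CPM in cluster 6, which should lack it. The source of such RNA, and its part in the levels below, were not tested.

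Of 2891 genes at 50 CPM or more in either class, 23 (0.796%) were at least 2-fold higher in macrophages in both brains and 29 (1.00%) at least 2-fold lower. Besides the rule's own genes, the higher ones included Pf4, Fcrls, Acp5, Syngr1, Trem2, Slamf9, Cd72, Lgmn and Cxcl16. The lower ones included S100a8, Vcan, Hp, Slpi and Fn1. With TMM scaling the counts were 16 and 39, and 16 of the 23 and all 29 genes were among them. In single brains more genes passed, 63 higher and 64 lower without metastasis 1 and 49 higher without metastasis 2. The summed microglia list was also higher in macrophages than in monocytes, at 1133 and 668 CPM against 514 and 377 CPM. Leaving out cells with 2 or more UMIs of microglia genes, a choice made after the data were seen, gave 23 higher and 32 lower genes. No test applies to these counts, since the RNA of the same cells was used for the rule.

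**Figure D1:**
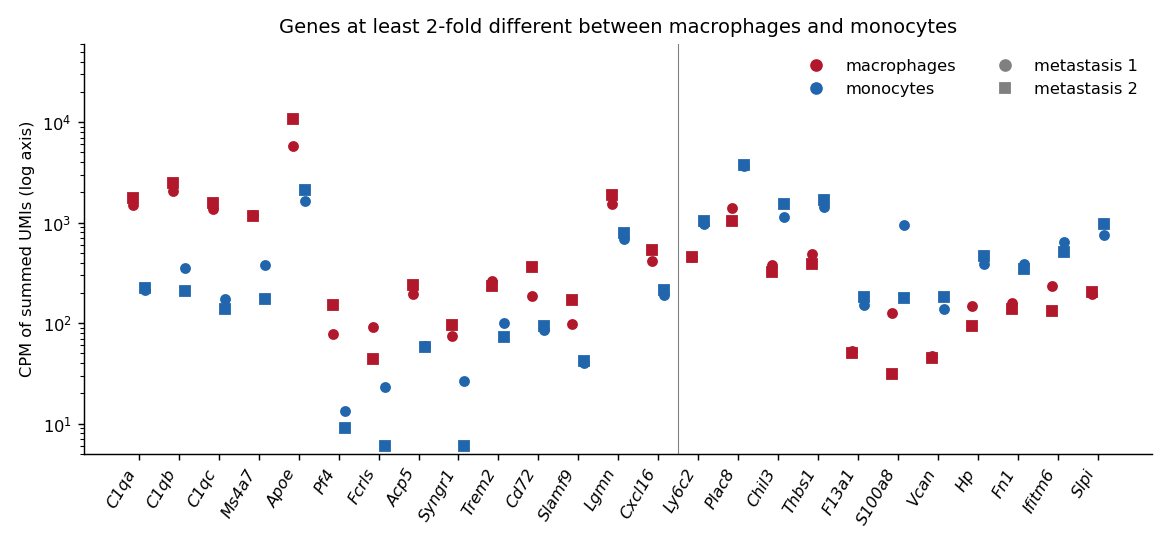
Levels (CPM of summed UMIs, log axis) of 14 genes higher and 11 genes lower in macrophages (red) than in monocytes (blue) of the same brain, with a point per brain (circle: metastasis 1, square: metastasis 2); the first 5 genes on each side are those of the rule. Classes do not overlap for any gene shown, and Apoe is the gene shown with the highest macrophage level, at 5786 and 10770.3 CPM.

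The rule's macrophage genes set the scale. C1qa was at 1499 and 1752 CPM in macrophages against 216 and 226 CPM in monocytes, C1qb at 2044 and 2507 CPM against 349.9 and 208 CPM, and C1qc at 1364 and 1566 CPM against 174 and 139 CPM. Apoe was at 5786 and 10770.3 CPM against 1632 and 2096 CPM, and Ms4a7 at 1197 and 1169 CPM against 375 and 175 CPM. Single cells were sparser than the sums: C1qa was seen in 67.4% and 69.2% of macrophages, 18.7% and 13.4% of monocytes and 2.58% and 3.20% of cluster 6 cells.

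Genes outside the rule followed. Pf4 was at 77.2 and 152 CPM in macrophages and at 13.3 and 9.05 CPM in monocytes (log2 1.91 and 3.09). Cd72, an inhibitory receptor better known from B cells, was at 185 and 358 CPM against 86.2 and 93.5 CPM, and Trem2, a receptor for lipids, at 264 and 234 CPM against 99.5 and 72.4 CPM. In all 3 the classes did not overlap. Acp5, the phosphatase of osteoclasts, was at 194 and 237 CPM against 59.7 and 57.3 CPM, and Lgmn, the lysosomal protease legumain, at 1550.0 and 1905 CPM against 695 and 781 CPM. Pf4 was seen in 10.2% and 15.4% of macrophages, 1.22% and 1.21% of monocytes and 0% and 0.80% of cluster 6 cells, where 0 of 155 allows a share of up to 1.94%. Thinned to 1000 UMIs per cell, which left out 77 of 304 and 177 of 701 macrophages, the shares were 8.37% and 8.97%.

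The bases before the starts of 2 of these genes are shown because both hold the letters of a site for PU.1, the myeloid transcription factor encoded by Spi1. They are the 250 bases upstream of the first listed start in RefSeq's GRCm38.p6 table, at chr4:136892915-136893164 (minus strand) for C1qc and chr5:90772185-90772434 (plus strand) for Pf4. Capitals mark GAGGAAGT on the opposite strand, searched on both strands.
C1qc: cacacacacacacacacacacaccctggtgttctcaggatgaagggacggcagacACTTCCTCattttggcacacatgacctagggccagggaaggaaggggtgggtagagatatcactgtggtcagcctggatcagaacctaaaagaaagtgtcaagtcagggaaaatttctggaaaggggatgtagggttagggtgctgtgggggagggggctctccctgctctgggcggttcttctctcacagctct
Pf4: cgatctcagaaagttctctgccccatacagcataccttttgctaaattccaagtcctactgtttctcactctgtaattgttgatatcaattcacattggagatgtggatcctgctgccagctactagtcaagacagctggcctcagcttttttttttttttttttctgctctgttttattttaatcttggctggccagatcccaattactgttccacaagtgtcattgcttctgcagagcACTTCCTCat
The match begins 195 bases before the start of C1qc and 10 bases before that of Pf4. Of the 23 genes higher in macrophages, 20 had a promoter in the table and 5 of these held the motif, C1qc, Pf4, Slamf9, Cd72 and Hpgds. Of the 23 matched among the 29 lower genes 2 held it, S100a8 and Ly6c2, and of all 27025 promoters 660 (2.44%) did. C1qc and Ly6c2 are genes of the rule, so the choice of cells put them among the called genes. The motif counts rest on that choice in part. Spi1 itself was at 459 and 448 CPM in macrophages and 565 and 485 CPM in monocytes. A match is a run of letters, not a measured binding site.

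Monocyte genes outside the rule were lower in macrophages. Of 12 fixed, 10 were measured at 50 CPM and all 10 were lower in both brains, 4 of them at least 2-fold, where 31.3% of all genes were lower in both brains at any size and 39.7% higher. The proteoglycan gene Vcan was at 46.6 and 45.2 CPM in macrophages and at 139 and 181 CPM in monocytes. Ccr2 was lower by less, at 385 and 339.6 CPM against 663 and 552 CPM. The list's median log2 ratio was -0.93, beside 0.04 over all genes.

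Neutrophil granule genes had the largest differences downward. Ngp was at 61.2 and 3.02 CPM in macrophages and 511 and 54.3 CPM in monocytes. S100a8, a subunit of the calcium-binding protein calprotectin, was at 125 and 31.4 CPM against 947 and 178 CPM. Levels were higher in metastasis 1 in both classes. The neutrophil genes Ly6g and Cxcr2 were at no more than 3.62 CPM in macrophages and 4.97 CPM in monocytes, and S100a8 was at 2.27 and 2.36 CPM in cluster 6. Whether neutrophil RNA in the droplets had a part was not tested.

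Chemokines as a list had shares of higher and lower genes near those of all genes. Of 22 listed, 15 were at 50 CPM, with 5 higher and 6 lower in both brains and 2 at least 2-fold higher, Pf4 and Cxcl16, beside 39.7% higher and 31.3% lower over all genes. Cxcl16, a membrane-bound ligand of Cxcr6 on T cells, was at 411 and 531 CPM in macrophages and 192 and 214 CPM in monocytes. Ccl7 and Ccl12, which attract monocytes through Ccr2, were also higher, Ccl7 at 519 and 555 CPM against 264 and 262 CPM and Ccl12 at 527 and 456 CPM against 313 and 289 CPM. Ccl2, the main Ccr2 ligand, was lower in macrophages, at 594 and 486 CPM against 769 and 618 CPM. So were Cxcl2, which draws neutrophils, at 951 and 899 CPM against 1504 and 1309 CPM, and Ccl6 at 564 and 637 CPM against 1031 and 974 CPM. With TMM scaling, 5 of the 15 were higher and 8 lower, beside 26.5% and 43.2% of all genes.

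Cxcl10, the interferon-induced chemokine named in the study's title, was lower in the macrophages. It was at 358 and 236 CPM in macrophages, 703 and 618 CPM in monocytes, and 31.8 and 63.6 CPM in cluster 6. The log2 ratios were -0.95 in metastasis 1 and -1.35 in metastasis 2, so that the first brain fell just short of 2-fold. In counts, macrophages held 246 of the 1105 Cxcl10 UMIs of metastasis 1 (22.3%) and 392 of the 1112 of metastasis 2 (35.3%), being 5.67% and 11.4% of cells. The few cells of cluster 12 in these brains held 17 (1.54%) and 29 (2.61%) of them, being 0.485% and 0.243% of cells. A Cxcl10 UMI was seen in 29.3% (24.2 to 34.7) and 22.8% (19.8 to 26.1) of macrophages, against 32.1% (27.1 to 37.5) and 29.1% (23.6 to 35.2) of monocytes. Thinned to 1000 UMIs the shares were 21.6% and 14.5% in macrophages and 25.9% and 29.0% in monocytes. Cluster 6, with medians of 949 and 1571 UMIs, had 2.58% and 8.0%. Cxcl9, which shares the receptor Cxcr3, was at 49.5 and 71.2 CPM against 73.0 and 27.1 CPM, opposite ways in the 2 brains.

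Type I interferon genes were lower in macrophages than in monocytes by small amounts. Of 23 at 50 CPM, 20 were lower in both brains and only Bst2 was higher, at 889 and 917 CPM against 741 and 769 CPM. None was 2-fold different. Over all genes 31.3% were lower and 39.7% higher in both brains. The median log2 ratio was -0.44. Ifitm3, a membrane protein that blocks viral entry, was at 3721 and 3930.1 CPM against 6286 and 6109 CPM, Ifit1 at 176 and 159.8 CPM against 328 and 302 CPM, and Isg15, a ubiquitin-like protein, at 1117 and 1061 CPM against 1466 and 1667 CPM. Irf7, the transcription factor that amplifies the response, differed little, at 669 and 887 CPM against 713 and 874 CPM. Scaling bears on such small ratios: TMM factors moved the median of all genes by -0.11 on the log2 scale, and 22 of 23 were then lower, beside 43.2% of all genes. Both classes lay above naive cluster 12, where Isg15 was at 88.5 and 58.3 CPM and the 24 genes summed to 1967 and 1457 CPM, against 10366 and 10605 CPM in macrophages. In cluster 12 of the brains with metastases Isg15 was at 504 and 886 CPM and the sum at 5093 and 8097 CPM, above naive cluster 12 and below the macrophages.

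The upstream bases of Cxcl10 and Isg15 are shown because both hold an interferon-stimulated response element in capitals (GAAA, any 2 bases, GAAA, searched on both strands). They lie at chr5:92348890-92349139 and chr4:156200819-156201068, both on the minus strand of GRCm38.p6, 250 bases each from RefSeq.
Cxcl10: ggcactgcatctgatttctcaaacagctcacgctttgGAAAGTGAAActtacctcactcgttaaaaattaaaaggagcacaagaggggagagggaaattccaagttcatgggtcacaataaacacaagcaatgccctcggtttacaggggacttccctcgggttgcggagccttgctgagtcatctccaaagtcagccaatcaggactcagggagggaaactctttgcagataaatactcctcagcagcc
Isg15: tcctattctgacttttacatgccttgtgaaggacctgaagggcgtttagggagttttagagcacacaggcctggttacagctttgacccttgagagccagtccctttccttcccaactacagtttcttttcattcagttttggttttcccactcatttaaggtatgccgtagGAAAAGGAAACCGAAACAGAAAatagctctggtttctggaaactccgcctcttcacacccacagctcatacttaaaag
Cxcl10 had 1 match, beginning 213 bases before the start. Isg15 had 3 that overlap, beginning 78, 72 and 66 bases before it. Of 24 type I interferon genes 17 had a promoter in the table, and 10 of these (58.8%) held the motif on either strand, against 821 of all 27025 (3.04%). The motif was not particular to that list, since 9 of 13 matched genes of the interferon gamma list (69.2%) also held it. Among the genes 2-fold different between macrophages and monocytes the letters were found in 1 of 20 higher, Clec4b1, and 1 of 23 lower, Saa3.

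MHC class II genes were higher in macrophages. Of 11 listed, 7 were at 50 CPM and all 7 were higher in both brains, none of them 2-fold, with a median log2 ratio of 0.71 (6 of 7 with TMM scaling). Beside them, 39.7% of all genes were higher and 31.3% lower, or 26.5% and 43.2% with TMM scaling. Cd74, the invariant chain, was at 10601 and 11922 CPM against 7703 and 6088 CPM in monocytes. H2-Ab1, a class II chain, was at 4060.0 and 4377 CPM against 2595 and 2065 CPM. It was seen in 74.3% and 76.2% of macrophages, 47.7% and 36.0% of monocytes, and 11.6% and 9.60% of cluster 6 cells. Class I genes were nearer the shares of all genes: 6 of 13 were higher and 3 lower in both brains (4 and 4 with TMM scaling). H2-K1 was at 1036 and 1204 CPM against 784 and 727 CPM. Ciita, the class II master regulator, was at 40.8 and 26.5 CPM against 39.8 and 33.2 CPM, below the floor.

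Lysosomal and lipid genes were also mostly higher. Of 18 lysosomal genes 15 were higher and 3 lower in both brains (14 and 3 with TMM scaling), with Lgmn the only member past 2-fold. Beside them, 39.7% of all genes were higher and 31.3% lower. Ctsb, a cysteine protease, was at 3455 and 3386 CPM in macrophages against 2058 and 1848 CPM in monocytes, and Ctsd at 1126 and 793 CPM against 456 and 455 CPM. The lower ones were Ctsc, Lamp2 and Lyz2. Summed, the lysosomal list was lower in macrophages, at 38329 and 32731 CPM against 40846 and 33377 CPM in monocytes. Of 17 lipid and damage-response genes at 50 CPM, 14 were higher and 2 lower (13 and 3 with TMM scaling), with a median log2 ratio of 0.70. The summed list outside Apoe was nearly level, at 12544 and 12851 CPM in macrophages against 12127 and 12274.5 CPM in monocytes. Nr1h3, which encodes the sterol sensor LXR alpha, was at 99.1 and 74.8 CPM against 29.8 and 33.2 CPM, and Cd63, an endosomal tetraspanin, at 746 and 852 CPM against 313 and 434 CPM. Tyrobp, the adaptor of Trem2, was lower in macrophages at 3072 and 2855 CPM against 4151 and 3971 CPM, while Trem2 itself was higher.

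Cytokine genes were mostly lower in macrophages, while checkpoint genes gave no single direction, with 3 of 9 higher and 4 lower in both brains. Il1b was at 894 and 900.5 CPM in macrophages against 1701 and 1556 CPM in monocytes, and the interleukin 1 antagonist gene Il1rn at 264 and 189 CPM against 352 and 298 CPM. Of 9 cytokine and NF-kB genes at 50 CPM, 6 were lower and 2 higher in both brains (6 and 0 with TMM scaling). Among all genes 31.3% were lower and 39.7% higher, or 43.2% and 26.5% with TMM scaling. Cd274, which encodes PD-L1, was at 77.2 and 68.8 CPM against 86.2 and 51.3 CPM, opposite ways in the 2 brains, and Vsir, which encodes VISTA, at 172 and 148 CPM against 156 and 103 CPM. Nos2 and Ido1 had no UMI in either class. Arg1, used as a marker of an alternative activation state, was at 4.37 and 26.5 CPM in macrophages, in 3 of 304 and 23 of 701 cells. Complement genes outside C1q were split, with C3ar1, the C3a receptor gene, at 275 and 339.6 CPM against 131 and 208 CPM and C3 at 96.1 and 73.0 CPM against 129 and 112 CPM.

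**Figure D2:**
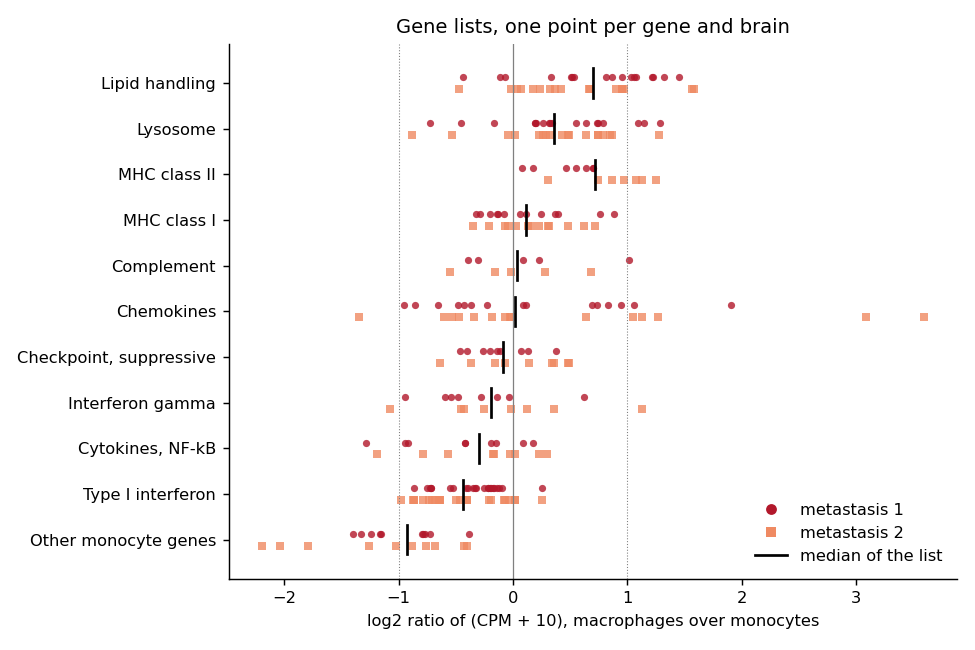
Log2 ratios of (CPM + 10), macrophages over monocytes, of each gene at 50 CPM or more in 11 lists, with the rule's own genes left out (circles: metastasis 1, squares: metastasis 2, black bar: median of the list over both brains, dotted lines: 2-fold). Medians run between 0.71 for MHC class II and -0.93 for other monocyte genes.

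Surface tags, which the rule did not use, were higher in macrophages for CD86 and, by less, for CD11b and CD45. The median CD86 count was 8 and 9 tags per cell in macrophages against 5 and 4 in monocytes, CD11b 150 and 175 against 124 and 103, and CD45 120 and 128 against 98 and 79. The classes did not overlap in any of the 3. The 99th percentile of cluster 6 cells was 7.76 and 3.76 CD86 tags. Above it were 53.6% and 76.2% of macrophages and 36.7% and 56.3% of monocytes. For CD45 this cut was 7.38 and 109.88 tags, passed by 99.3% and 55.2% of macrophages and 99.7% and 38.1% of monocytes. For CD11b, 98.4% and 93.2% of macrophages and 97.2% and 90.3% of monocytes passed 16.84 and 34.52 tags. On the log2(tags + 1) scale CD86 averaged 3.23 ± 0.06 in macrophages and 2.47 ± 0.14 in monocytes (SD, n = 2, the same brains in both classes), a difference of 0.76. CD11b averaged 7.39 ± 0.15 against 6.97 ± 0.18, and CD45 6.96 ± 0.03 against 6.65 ± 0.15. For each of the 6 antibodies p was 0.333 by the exact permutation test, two-sided (adjusted p = 0.333), the smallest value possible, so none could pass. CD3e, CD4 and CD25 had medians of 0 or 1 tag in both classes.

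Depth moved with the tags, since macrophages also held more UMIs. Among cells of 1000 to 2000 UMIs, 125 and 254 macrophages and 130 and 102 monocytes, median CD86 was 7 and 7 tags against 5 and 4. The mean log2 difference there was 0.47 for CD86, 0.22 for CD11b and 0.03 for CD45. As centred log ratios over the 6 antibodies of each cell, the differences were 0.43 for CD86, 0.10 for CD11b and -0.03 for CD45, and the exact permutation p for CD11b was then 0.667. CD86 kept its direction with the classes apart in both readings, whereas the classes overlapped in CD11b as a centred log ratio and CD45 had no steady direction. The RNA of the same antigens did not follow: Cd86 was at 131 and 88.1 CPM in macrophages and 159 and 99.5 CPM in monocytes, Itgam, which encodes CD11b, at 162 and 192 CPM against 159 and 187 CPM, and Ptprc, which encodes CD45, at 363 and 292 CPM against 405 and 344 CPM.

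Against naive cluster 12 the CD45 difference was larger. The macrophages had medians of 120 and 128 CD45 tags, against 13 and 16 in the 56 and 25 naive cluster 12 cells, with Ptprc RNA at 363 and 292 CPM against 354 and 291 CPM. The mean log2 difference was 2.58, and that of CD11b 1.43 (exact permutation p = 0.333 for both, the smallest possible, adjusted p = 0.333; a comparison chosen after the data were seen). CD45 minus CD11b, the mean log2 difference of the 2 tags, was -0.35 and -0.52 in macrophages and -1.68 and -1.48 in naive cluster 12. The 26 and 14 cluster 12 cells of the brains with metastases had 73 and 68.5 CD45 tags and values of -0.31 and -0.20. Within the brains with metastases, the value of cluster 12 thus lay close to that of the macrophages.

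**Figure D3:**
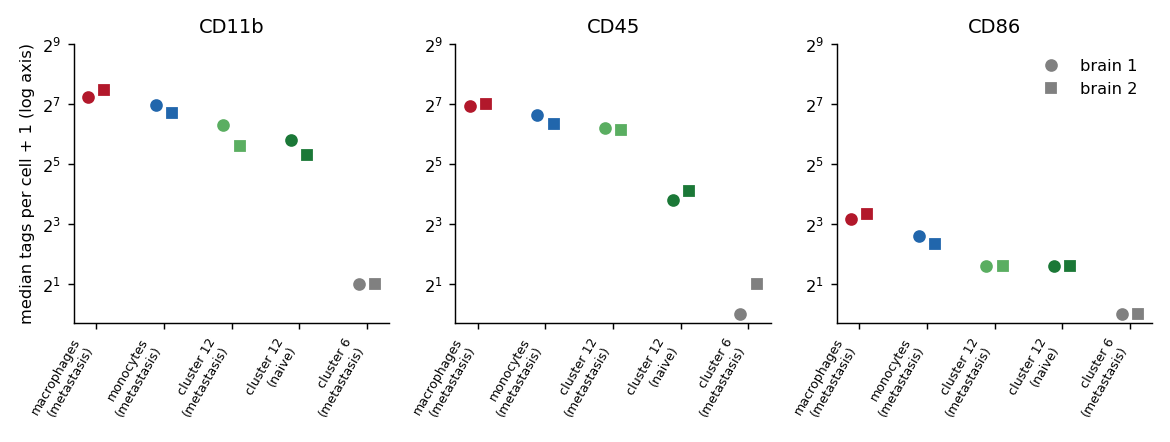
Median tags per cell plus 1 (log axis) of CD11b, CD45 and CD86 in macrophages and monocytes of the brains with metastases, in cluster 12 of both conditions and in cluster 6 of the brains with metastases (circle: brain 1, square: brain 2). CD45 is 120 and 128 tags in macrophages and 13 and 16 in naive cluster 12, and the cluster 6 medians are at no more than 1 tag of the 3 antibodies. Single cluster 6 cells reach higher counts.

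Cluster 2 cells were then set in 5 bins by the macrophage share of their UMIs of the 10 genes of the rule (5 UMIs or more, which left out 21 and 42 macrophages). C1q, Apoe and the monocyte genes change across bins by construction. Pf4 was at 4.07, 19.9, 39.6, 89.0 and 127 CPM from the lowest to the highest bin of metastasis 1, and at 6.68, 16.9, 44.5, 96.6 and 256 CPM in metastasis 2. Il1b went the other way, at 1806, 1629, 1199, 905 and 478 CPM in metastasis 1 and at 1691, 1557, 1278, 959.9 and 639.9 CPM in metastasis 2. Both genes kept 1 direction over all bins. Cxcl10 was highest in the lower 2 bins of both brains, at 602 and 711 CPM in metastasis 1 and 648 and 553 CPM in metastasis 2, and at 249 and 206 CPM in the top bin. The type I interferon list without Ifitm3 was level over the first 3 bins, at 8179, 8054 and 8436 CPM in metastasis 1, and at 4350.5 CPM in the top bin. In metastasis 2 the values were 9172, 8914, 8506 and 6079 CPM.

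The tags did not follow the same order. Median CD11b was 103, 194, 269, 185.5 and 89.5 tags from the lowest to the highest bin of metastasis 1, and 99.5, 136, 245, 262 and 144 in metastasis 2. Cells between the ends thus carried the most CD11b, and the most macrophage-like cells of metastasis 1 no more than the most monocyte-like. Median UMIs were 1208, 1876, 1915, 1560.5 and 1484 in metastasis 1 and 1065.5, 1147, 1559, 1845 and 1612 in metastasis 2, so depth moved with the tags in part. In cells of 1000 to 2000 UMIs the CD11b medians were 102, 154, 197, 159.5 and 86 in metastasis 1 and 93, 137, 174, 204 and 132 in metastasis 2. CD45 and CD86 had the same shape, CD86 at 5, 6, 8, 7 and 6 tags and 3, 5, 10, 9 and 6 tags at that depth. These are medians over cells, with no test.

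**Figure D4:**
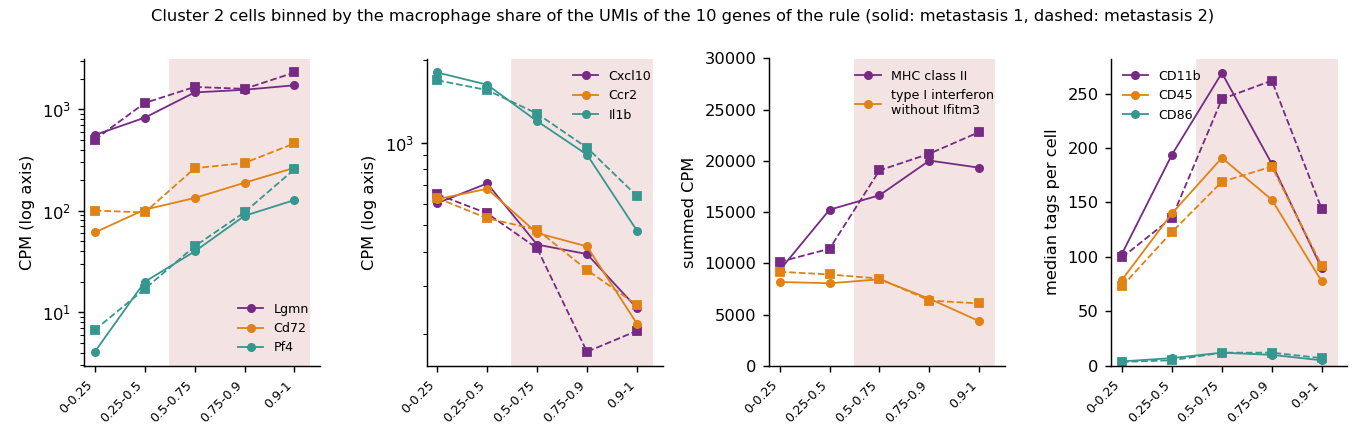
Cluster 2 cells of each brain in 5 bins of the macrophage share of the UMIs of the 10 genes of the rule (shaded: bins of the macrophages; solid: metastasis 1, dashed: metastasis 2), with CPM of named genes (log axes), summed CPM of 2 lists and median tags per cell. Pf4 is at 127 and 256 CPM in the top bins, while median CD11b is 269 tags in the middle bin of metastasis 1 and 262 tags in the fourth bin of metastasis 2.

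Macrophages varied among themselves most in Actb, Apoe, Cd74, Malat1, H2-Ab1, Lyz2, Ttr, Fth1, Spp1, H2-Aa, Ftl1 and H2-Eb1, by the residual variance given the depth of each cell. The 12 genes hold 4 of class II, and the choroid plexus gene Ttr. The 25% of macrophages of each brain highest and lowest in class II were set side by side. Summed class II was at 48498 and 49799.8 CPM, over H2-Aa, H2-Ab1, H2-Eb1 and Cd74, in the high cells and 1723 and 1579.9 CPM in the low cells. That gap is set by the sorting. The low cells were also shallower, with medians of 1403 and 1128.5 UMIs against 1638.5 and 1756. The C1q genes, which belong to the rule, were at 5418 and 7260.1 CPM in the high cells against 4173 and 4660.0 CPM in the low cells. Ctsd ran the other way, at 862 and 626 CPM in the high cells against 1695 and 964 CPM in the low cells, and Pf4 likewise, at 20.5 and 98.0 CPM against 144 and 268 CPM. Ttr was at 1656 and 2259 CPM in the high cells against 10961 and 2846 CPM in the low cells, and its part in the low class II of metastasis 1 was not tested.

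Spp1, or osteopontin, a matrix protein made by lipid-laden macrophages, was concentrated in few cells. It was at 571 and 899 CPM in macrophages and at 290.2 and 476 CPM in monocytes, and 20.1% and 33.4% of macrophages had a UMI, against 11.0% and 13.8% of monocytes and 3.87% and 7.20% of cluster 6. The top 5% of cells held 81.6% and 58.3% of its UMIs, up to 105 in a single cell. In cluster 6 of metastasis 2 Spp1 was at 452 CPM, with 122 UMIs in a single cell, so the summed level there was not a background. In the tenth of macrophages richest in Spp1, Fabp5 and Gpnmb, Ctsd was at 2822 and 1514 CPM against 960 and 729 CPM in the others, and class II at 11141 and 16334 CPM against 19771 and 21796 CPM.

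Microglia genes sat in a minority of the cells. At least 2 UMIs of 9 microglia genes were found in 54 of 304 macrophages of metastasis 1 (17.8%) and 64 of 701 of metastasis 2 (9.13%). These cells were deeper, with medians of 3254 and 3150.5 UMIs against 1368.5 and 1471.5 in cells with no such UMI. Their Cx3cr1 was at 573 and 374 CPM against 129 and 76.2 CPM, and their Ms4a7 at 1093 and 1223 CPM against 1279 and 1192 CPM. Median CD45 was 272.5 and 260.5 tags against 92 and 113. Ms4a7 is a gene of the rule, so its level does not set these cells apart from microglia. Whether 2 cells shared a droplet was not tested.

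The macrophages of the 2 brains differed in few genes. Of 2904 genes at 50 CPM in either brain, 10 (0.344%) were at least 2-fold higher in metastasis 1 and 7 (0.241%) at least 2-fold lower, with 1 brain a side and no test. Without cells with 2 or more microglia UMIs the counts were 8 and 11, and 5 of the 10 and 6 of the 7 genes were among them. Ratios below are metastasis 1 over metastasis 2 with exact 95% counting intervals. Ccl8, which attracts monocytes and T cells, had 19 UMIs in metastasis 1 and 366 in metastasis 2, or 27.7 and 221 CPM (ratio 0.125, interval 0.0746 to 0.199). Pltp, a phospholipid transfer protein, was at 62.6 and 165 CPM (0.380, interval 0.269 to 0.526) and Ly6a at 339 and 739 CPM (0.459, interval 0.398 to 0.529). Apoe, at 5786 and 10770.3 CPM, was just short of 2-fold (0.537, interval 0.519 to 0.556), and Fcgr4, an Fc receptor gene, had 0.488 (interval 0.388 to 0.609). Both Ly6a and Pltp were also in cluster 6, Ly6a at 1127 and 1013 CPM and Pltp at 295 and 212 CPM, with the levels in metastasis 1 no lower.

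In the other direction, Cx3cr1, the fractalkine receptor gene, was at 299 CPM in metastasis 1 and 139.9 CPM in metastasis 2 (2.13, interval 1.76 to 2.59), and S100a8 at 125 and 31.4 CPM (3.99, interval 2.80 to 5.75). Without cells with 2 or more microglia UMIs Cx3cr1 was at 175 and 101 CPM, short of 2-fold. P2ry12 was also higher in metastasis 1, at 55.4 and 18.1 CPM, and Tmem119 at 108 and 57.3 CPM fell short of 2-fold. The genes higher in metastasis 1 were thus of microglia and neutrophils in part. The shares of cells with microglia UMIs and the neutrophil sums, 304 against 107 CPM, were also larger in that brain. Both count genes named here, P2ry12 and Tmem119 in the shares and S100a8 in the sums. They are therefore no separate measure of such cells.

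**Figure D5:**
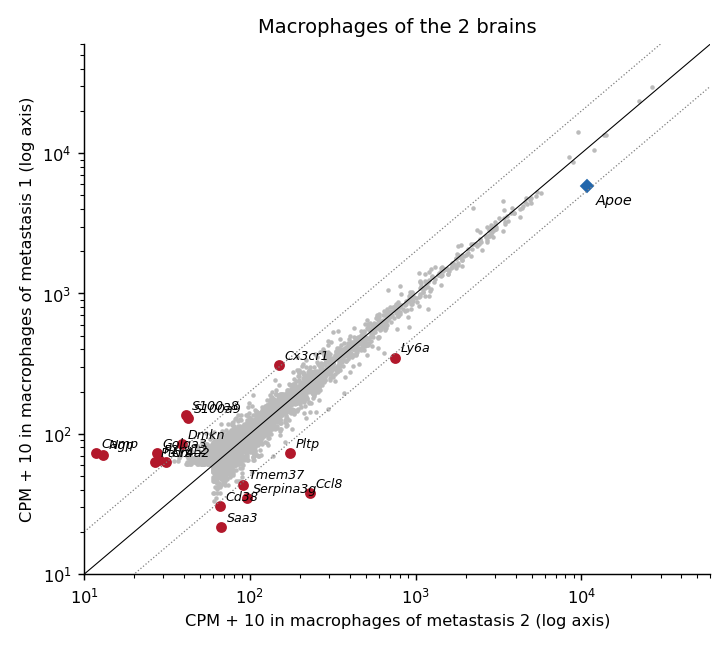
Level in macrophages of metastasis 1 (vertical) against metastasis 2 (horizontal), CPM + 10 on log axes, for 2904 genes at 50 CPM or more in either brain; red points are the 17 genes at least 2-fold different, dotted lines are 2-fold, and the blue diamond is Apoe. Ccl8 lies farthest below the line among genes over 200 CPM in metastasis 2.

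Ccl8, one of the genes given as a mark of these cells, marked few of them. It was seen in 3.29% (1.59 to 5.97) of macrophages of metastasis 1 and 9.84% (7.74 to 12.3) of those of metastasis 2, against 0.917% and 1.21% of monocytes and 0.645% and 0.80% of cluster 6. The highest 5% of cells in metastasis 2 held 88.0% of its UMIs, with up to 53 in a single cell. Macrophages held 366 of the 525 Ccl8 UMIs of metastasis 2 (69.7%). In metastasis 1 they held 19 of 75 (25.3%), and the large clusters, with 73.6% of the cells, held 40 (53.3%). In metastasis 2 the 69 cells with Ccl8 had Ccl7 at 1077 CPM against 468 CPM in the 632 others, Pf4 at 312 CPM against 125 CPM and Ms4a7 at 1744 CPM against 1074 CPM. Their median depth was 2471 UMIs against 1559, and median CD11b was 303 tags against 161. Ccr2 and Il1b were lower in the same cells, at 249 against 355 CPM and 545 against 959.7 CPM. The 10 cells of metastasis 1 were too few for such a split.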

How the data were processed

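The deposited RNA table holds UMI counts that were not normalized, and the deposited antibody tables hold tag counts of each cell. Cell Ranger 3.0.2, Seurat 3.0.1 and the mm10 build are named in the submitters' processing notes, whose settings are not stated in the labels. A deposited table of cells gives the authors' cluster, the hashing call and the percent of mitochondrial UMIs. All cells had at least 500 UMIs. The brains with metastases gave 5360 and 6174 cells with 45724262 and 57620835 UMIs, and the naive brains 572 and 315 cells with 1691221 and 694223 UMIs.

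The members, lists and tests were chosen with earlier results of these data known. UMIs were summed per brain and class, scaled to CPM, and compared as log2(CPM + 10) for genes at 50 CPM or more, with a gene counted at 2-fold the same way in both brains. The counting of genes was tested on simulated data with known changes. No model of p-values across genes was fitted, because the rule and the clusters used the same RNA. Tags were compared as the mean of log2(tags + 1) per brain by an exact two-sided permutation test, adjusted by Benjamini-Hochberg over the 6 antibodies. As the labels do not tie each brain to its own animal or day, the spread between brains may be technical in part. Replicate numbers only count the brains. Intervals are exact (binomial for shares, Poisson for ratios) and cover counting error only. Doublets were called with Scrublet in scanpy 1.11.5 (226 cells, 1.82%) and left out in an alternative only. TMM and RLE factors came from edgeR 4.0.16, used for scaling alone.

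Named genes were those of the rule and the given markers, the 12 highest and 8 lowest ratios at 100 CPM or more, up to 5 members per list by level, 4 genes each way between brains and the 12 most variable. Others were named for their known role after their values were seen. Some genes were not analysed here.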

Additional observations from a re-analysis of the deposited data

How the results depend on the processing

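The count of genes 2-fold higher in macrophages, 23, was 15 with RLE scaling, 48 when one rule sum had to be 2 times the other and 38 with means over cells, and 49 to 63 with a brain left out. The count of lower genes, 29, was 45 with the margin of 2 times and 38 to 64 with a brain left out. Of the 23 higher genes, 15 were kept with RLE scaling and 22 with the margin. Between the brains, a floor of 10 CPM gave 23 genes higher in metastasis 1 and 16 in metastasis 2, where a pseudocount of 1 CPM gave 14 and leaving out cells with 2 or more microglia UMIs gave 11.

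List medians on the log2 scale moved as follows. With TMM scaling they were -0.079 for complement, -0.090 for chemokines, -0.0020 for MHC class I and 0.24 for lysosome. With a floor of 10 CPM they were 1.03 for border macrophage genes and 0.14 for complement. With the margin of 2 times they were 0.13 for complement, -0.65 for type I interferon and -0.010 for growth factors. With a brain left out they ran from -0.38 to -0.13 for interferon gamma, from -0.14 to 0.14 for checkpoint genes and from 0.33 to 0.45 for lysosome.

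With centred log ratios the tag differences were -0.19 for CD25, -0.23 for CD3e, -0.076 for CD4 and -0.0261 for CD45, against 0.43 for CD86 and 0.0955 for CD11b. From median tags, CD3e and CD4 differed by 0, and CD3e by -0.025 in cells of 1000 to 2000 UMIs, a range chosen after the data were seen. With the brain as a replicate block the differences stayed 0.43 for CD11b, 0.31 for CD45 and 0.76 for CD86, with an exact sign-flip p of 0.5, the smallest possible, so the block could change no call. Thinned to 1000 UMIs, the mean share of macrophages with a UMI was 18.0% for Cxcl10 and 6.32% for Tmem119. The cause of these shifts was not tested. The remaining 142 values for these results moved by less than the spread between brains, stayed within 1.5 times for counts or, for tags, kept their direction. Among them the medians near 0 changed sign for complement (-0.02 without cells of 2 or more microglia UMIs and without metastasis 1) and for chemokines (-0.03 without metastasis 1). The macrophage share without Apoe in the rule is also among them, at a mean of 44.8% against 61.1%, because the spread between brains was wide. Depth limits the single-cell shares, since the median macrophage held 1602.5 and 1631 UMIs.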
